A study of Mus musculus with 6 samples.

Results

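The genes described are the inhibitors of cyclin-dependent kinases (CDKs), *Cdkn1a*, *Cdkn1b*, *Cdkn1c*, *Cdkn2a*, *Cdkn2b*, *Cdkn2c* and *Cdkn2d*, together with *Trp53*, *Mdm2* and *Rb1*. They were taken by symbol from a table of 19078 genes, in which 9 of the 10 were listed. *Cdkn1c* was not listed and was not analysed here. RNA of immortalized mouse fibroblasts (MF) was sequenced in 6 libraries, 3 of *Ms4a15* OE cells and 3 of control cells. All cells descend from male conditional *Gpx4* -/- mouse embryonic fibroblasts that express Cre-ERt2 and carry a CRISPR activation system. *Ms4a15* OE is a pool of cells in which a lentiviral guide directs this system to *Ms4a15*, and control cells received empty lentivirus, although the labels give their genotype as wild type. No label ties the 3 libraries of a group to separate cultures, and how the fibroblasts were immortalized is not given in the sources used here.

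The values used are the authors' means of normalized counts over all 6 libraries, with *Ms4a15* OE and control pooled. They describe the state of these genes in the fibroblasts of the study as a whole. The difference between *Ms4a15* OE and control is given only by the authors' own fold changes and tests, which were not used here, so no comparison of the groups is made. With 3 libraries in each group, the mean of either can be at most 2 times the pooled mean. No spread between libraries can be given, and the 95% intervals below are exact Poisson intervals on the approximate number of reads behind a mean, which cover counting error only. *Ms4a15* itself had a pooled mean of 638 normalized counts, which does not check the labels of single libraries.

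The cells expressed fibroblast markers. All 10 markers fixed for fibroblasts were above a floor of 3 counts per library, from 278 normalized counts for *Pdgfra* to 135155 for *Col1a2*. Of 7 epithelial markers 1 was above it, *Krt8* at 10.9, while *Epcam* rested on 1 read over all libraries and *Cdh1* on 7. All 5 myeloid markers listed were above the floor, from *Itgam* at 5.79 to *Lyz2* at 534, with *Ptprc* at 11.1 and *Csf1r* at 13.2. Of 5 endothelial markers, 3 were above it, and the highest was *Cdh5* at 107. The 5 proliferation markers lay between 13231 for *Ccnb1* and 47531 for *Top2a*. The part of other cells in the levels below was not tested. The means of all genes added up to 40991755 normalized counts, and the size factors of the 6 libraries, which correct for depth, lay between 0.887 and 1.14.

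The products of these genes, other than *Mdm2*, brake the cell cycle at the step from G1 to S phase. RB holds E2F transcription factors inactive until CDKs bound to cyclins phosphorylate it. INK4 proteins, encoded by the *Cdkn2* genes, bind CDK4 and CDK6, whereas CIP/KIP proteins, encoded by the *Cdkn1* genes, bind cyclin-CDK complexes more broadly. p53 induces *Cdkn1a* and *Mdm2*, and MDM2 in turn marks p53 for degradation. The *Cdkn2a* locus joins both pathways, since it encodes p16INK4a, a CDK inhibitor, and p19ARF, which restrains MDM2. Primary mouse fibroblasts accumulate p19ARF, p16INK4a and p21 in culture, and loss of p53 or of the *Cdkn2a* locus is a well-known route to their immortalization. Sequence changes in *Trp53* and the proteins themselves were not measured.

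Sequences before the annotated starts of *Cdkn1a* and *Cdkn2a* are shown for the link between p53 and *Cdkn1a* and for the separate starts behind the *Cdkn2a* level. They are from RefSeq on GRCm38.p6, 5′ to 3′ in the direction of transcription, and stop before the first annotated exon base. The 97 bases before the upstream start of *Cdkn1a*, on the forward strand at chr17:29090879-29090975, hold matches to the p53 motif in capitals. The 66 bases before the upstream *Cdkn2a* start, on the reverse strand at chr4:89294654-89294719, hold a match to the E2F word TTTCCCGC in capitals. The 100 bases before the downstream *Cdkn2a* start, on the reverse strand at chr4:89282193-89282292, hold neither.
Cdkn1a, upstream start: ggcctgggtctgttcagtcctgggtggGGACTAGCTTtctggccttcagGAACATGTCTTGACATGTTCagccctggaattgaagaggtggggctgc
Cdkn2a, upstream start: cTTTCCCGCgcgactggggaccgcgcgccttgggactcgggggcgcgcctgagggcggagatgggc
Cdkn2a, downstream start: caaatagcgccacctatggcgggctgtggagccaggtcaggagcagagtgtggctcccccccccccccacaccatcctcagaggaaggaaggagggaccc

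All 11 windows of 250 bases before the starts of the 8 genes with an entry were searched on both strands. A pair of p53 units of 10 bases each, with at most 13 bases between them and without a mismatch, was found before the upstream *Cdkn1a* start alone, where the units began 73 and 51 bases before the start with 12 bases between them. With 1 mismatch allowed, a further pair with 0 bases between its units began 51 bases before the start. These distances are counted from the RefSeq start at 29090979. The sequence shown above stops at 29090975, before the first annotated exon base. Such pairs are rare in this window in general. The 11206 genes of the table with an entry have 14187 windows. Pairs without a mismatch were present in 4 of these, or 0.0282%, and pairs with 1 allowed in 0.268%. The *Mdm2* window held none, and the known p53 sites of *Mdm2* lie in its first intron, outside this window. The E2F word TTTCCCGC was present in 1.42% of all windows and, among those of the genes described, before the upstream *Cdkn2a* start only. The words TTTGGCGC and TTTCGCGC were in no window of these genes and in 0.691% and 0.423% of all windows. A match describes letters only, and binding was not measured.

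All 9 genes listed were above the floor, as were 75.8% of all genes in the table, and 8 of the 9 were above 237 normalized counts, the median of all genes. Among the 12914 genes averaging 10 or more normalized counts the median was 1082, and 6 of the 9 were above it. These were *Trp53*, *Mdm2*, *Cdkn2a*, *Cdkn1b*, *Cdkn1a* and *Cdkn2c*, whereas *Cdkn2b*, *Rb1* and *Cdkn2d* were below. The median of the 9 genes was 1452 normalized counts.

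**Figure D1:**
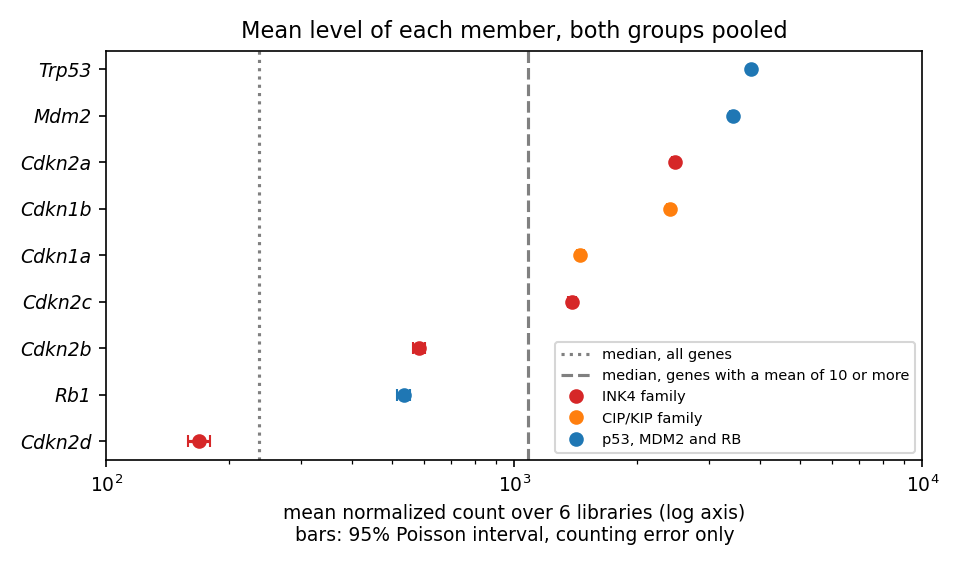
Mean normalized count over the 6 libraries (log axis) of each listed gene, with 95% Poisson intervals for counting error only. The points run from 169 for *Cdkn2d* to 3807 for *Trp53*, and *Cdkn2d* alone is left of the median of all genes (dotted line).

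*Trp53*, which encodes p53, had the highest mean of the 9 genes. It lies on the forward strand of chromosome 11 (GRCm38) from 69580359 to 69591873. Its mean was 3807 normalized counts (95% interval from 3758 to 3856), above that of 86.2% of all genes in the table. *Mdm2*, on the reverse strand of chromosome 10 from 117688875 to 117710758, followed with 3424 normalized counts (95% interval from 3378 to 3471), above 84.7% of genes. Transcripts of p53 and of its main ubiquitin ligase were thus both abundant, and their levels per kb of the longest transcript were 1162 and 1089, a ratio of 1.07. This ratio depends on the length used, because the longest *Trp53* transcript of the annotation, with 3275 bases, codes for no protein. Per kb of the longest transcript that codes, the level of *Trp53* was 2039. Levels per kb were therefore taken under 4 choices of length, which are the longest transcript, the longest transcript that codes, the coding length and the mean length over annotated transcripts. The paralog *Mdm4*, which restrains p53 by binding it, had a lower mean of 166 normalized counts, or 23.4 per kb.

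Of 26 symbols for the p53 family and its regulators, *Trp53* and *Mdm2* among them, 24 were listed. *Cop1*, which was not listed, is another name of *Rfwd2*, listed at 4792 normalized counts. Without *Trp53* and *Mdm2*, 22 genes remained, of which 21 were above the floor. Of the 22, 13 were above 1082, the median of genes averaging 10 or more normalized counts. The median of the 22 was 1831 beside 237 for all genes. The p53 relatives were low or not listed, with *Trp63* at 9.03 normalized counts and *Trp73* not analysed here. The kinases that signal DNA damage to p53 ranged from *Chek2* at 1594 and *Chek1* at 2310 to *Atr* at 2247 and *Atm* at 5378. *Bmi1*, a Polycomb repressor of the *Cdkn2a* locus, stood at 6704, and *Cbx7*, another Polycomb protein that represses it, at 175. *Tbx2*, a further repressor of the locus, rested on 5 reads over all libraries, while its relative *Tbx3* was at 705.

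The targets of p53 covered a wide range. Of 35 target genes, *Cdkn1a* and *Mdm2* among them, 31 were listed, 29 were above the floor and 23 were above the median of all genes. Their median was 923 normalized counts. Of the 29 averaging 10 or more normalized counts, 14 were above 1082, the median of such genes, and the median of the 29 was 960. *Gtse1* (8277), *Plk2* (6981) and *Bax*, a pore-forming apoptosis protein (3696), were the highest. *Ccng1*, which encodes cyclin G1, had 2342 normalized counts, *Phlda3* 1635 and *Zmat3* 1539. At the low end, *Pmaip1*, which encodes the apoptosis protein NOXA, rested on 1 read over all 6 libraries and *Gdf15*, a secreted stress factor, on 5. *Trp53inp1* had 25.2 normalized counts, *Fas* 56.2 and *Bbc3*, which encodes PUMA, 125. Several of these genes have regulators other than p53, and p53 activity was not measured.

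*Cdkn1a*, which encodes the CDK inhibitor p21, had a mean of 1452 normalized counts (95% interval from 1422 to 1483), above 70.5% of genes. It lies on the forward strand of chromosome 17 from 29090976 to 29100727, where 5 transcripts with starts at several places are annotated, so that reads from the start next to the p53 motif shown above were not counted apart. *Cdkn1b*, on the forward strand of chromosome 6 from 134920401 to 134925513, encodes p27. Its mean was 2404 normalized counts (95% interval from 2365 to 2443), above 79.0% of genes. Per kb of the longest transcript the order was the other way around, with 698 for *Cdkn1a* and 528 for *Cdkn1b*, since that of *Cdkn1b* is 4552 bases long and that of *Cdkn1a* 2080. Per coding length, *Cdkn1b* was again higher, with 4067 per kb against 3044. The order of p21 and p27 transcripts therefore rests on the length chosen. Of 14 symbols for CDK inhibitor turnover, 13 were listed, all above the floor, with a median of 3877 normalized counts, and 10 were above 1082. Some symbols name the same gene. *Cdt2*, which was not listed, is another name of *Dtl*, listed at 3074 normalized counts. *Kpc1* is another name of *Rnf123*, and their separate entries, at 29.6 and 81.0, were both counted. *Skp2*, which recognizes p27 for degradation, had 3120 and its cofactor *Cks1b* 6311.

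*Cdkn2a* had the highest level per length. Its mean was 2480 normalized counts (95% interval from 2440 to 2520), above 79.6% of genes. Per kb of the longest transcript it reached 2770.5, above 93.6% of the 14655 genes with an annotated length. By coding length it was above 90.0% of genes with such a length, and by mean length over transcripts above 86.8%. Per kb it exceeded each of the 8 other genes under all 4 choices of length. The closest was *Cdkn1b* by coding length, with a ratio of 1.20, and *Trp53* came within a ratio of 1.36 by mean length over transcripts. The gene lies on the reverse strand of chromosome 4 from 89274471 to 89294653. A first exon of 320 bases belongs to the upstream transcript alone and 277 bases to the downstream one, with 12461 bases between their starts. The upstream start gives p19ARF and the downstream start p16INK4a. The remaining 575 exon bases are shared, or 64.2% of the upstream and 67.5% of the downstream transcript. They include 317 bases that code in both, of which 0 are read in the same frame. A single mean per gene therefore cannot tell the p19ARF and p16INK4a transcripts apart. Over all 1172 exon bases of both transcripts the level was 2116 per kb.

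**Figure D2:**
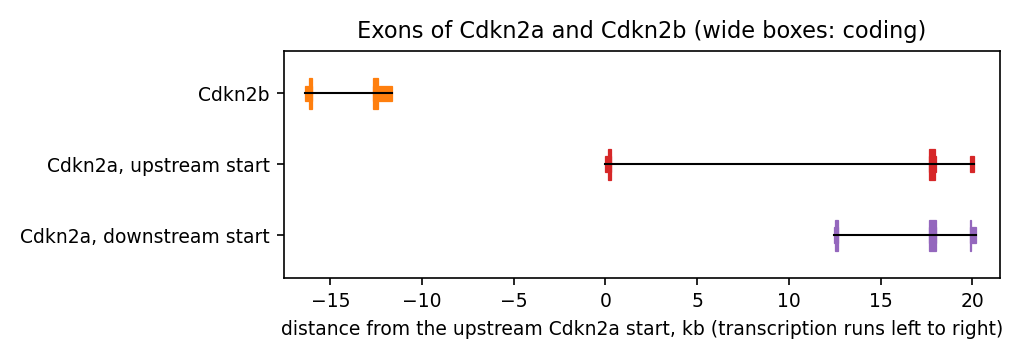
Exons (narrow boxes) and coding parts (wide boxes) of *Cdkn2b* and of both *Cdkn2a* transcripts, by distance in kb from the upstream *Cdkn2a* start. The *Cdkn2a* transcripts have separate first exons, with starts 12461 bases apart, and share most bases of the exons that follow.

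*Cdkn2b*, the neighbour of *Cdkn2a*, lies on the same strand of chromosome 4 from 89306299 to 89311039, and encodes p15INK4b. Its mean of 583 normalized counts (95% interval from 564 to 603) was above 57.9% of genes. Per kb of the longest transcript it was at 420, and *Cdkn2a* was 6.60 times higher. Under the other lengths this ratio ran from 3.27 to 6.77. On the other side of *Cdkn2a*, *Mtap*, a methionine salvage enzyme that lies from 89137122 to 89181081, had 13213 normalized counts. Beyond *Cdkn2b*, *Dmrta1* rested on 9 reads over all libraries and *Elavl2* had 452 normalized counts. Transcripts were thus read from *Mtap*, *Cdkn2a* and *Cdkn2b*, on the same stretch of chromosome 4. Copy number was not measured.

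*Cdkn2c* and *Cdkn2d* are the other INK4 genes. *Cdkn2c*, which encodes p18INK4c, lies on the reverse strand of chromosome 4 from 109660876 to 109667189. It had 1385 normalized counts (95% interval from 1355 to 1415), above 69.8% of genes. *Cdkn2d*, which encodes p19INK4d, lies on the reverse strand of chromosome 9 from 21288410 to 21291407. With 169 normalized counts (95% interval from 159 to 179) it was the lowest of the 9 genes and above 48.0% of the table. In either group its mean can be at most 338 normalized counts, which is below the pooled mean of every other of the 9 genes. The group means of those genes can lie below their pooled means too, so the order within a group is not known. Of the summed level of the INK4 genes per kb of the longest transcript, *Cdkn2a* made up 71.6%, *Cdkn2c* 14.5%, *Cdkn2b* 10.8% and *Cdkn2d* 3.07%. By coding length the share of *Cdkn2a* was 51.6% and that of *Cdkn2c* 29.0%. The *Cdkn2a* level also counts p19ARF transcripts, which encode no INK4 protein, so the share of p16INK4a is not known.

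**Figure D3:**
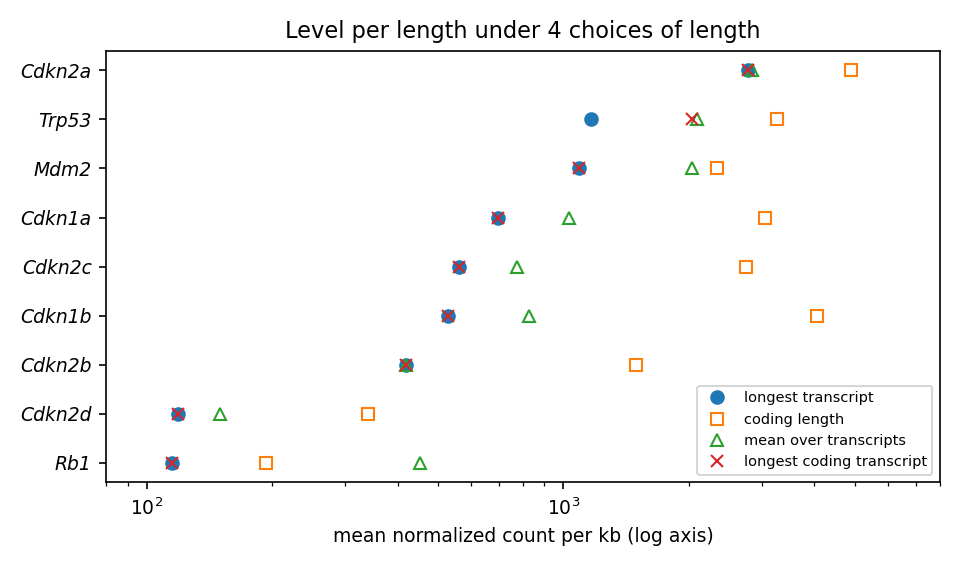
Mean normalized count per kb (log axis) of each listed gene under 4 choices of gene length. *Cdkn2a* is highest under each choice, while the middle of the order changes and *Rb1* moves from 115 to 452 between the longest transcript and the mean over transcripts.

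*Rb1*, which encodes RB, lies on the reverse strand of chromosome 14 from 73183673 to 73325822. Its mean was 535 normalized counts (95% interval from 517 to 554), above 57.0% of genes. It was the lowest of the 9 genes per kb of the longest transcript, with 115 against 119 for *Cdkn2d*, and the counting intervals of this pair overlapped. Exons of *Rcbtb2* and *Lpar6*, on the opposite strand, overlap 8.11% and 6.78% of its annotated exon bases. These genes had 2488 and 611 normalized counts. Whether reads were counted by strand is not given in the sources used here, so the *Rb1* value is uncertain to that extent.

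The other pocket proteins had higher means than *Rb1*. *Rbl1*, which encodes p107, had 3894 normalized counts, or 801 per kb, and *Rbl2*, which encodes p130, 1227, or 249 per kb. Of 19 genes of pocket proteins and E2F, all were listed and above the floor, with a median of 1466 normalized counts, and 12 were above 1082. The activator *E2f1* had 2236 and *E2f3* 2533, the repressors *E2f7* and *E2f8* 3767 and 2925, and *E2f4*, which acts with p107 and p130, 4557. The lowest was *Lin9* at 5.05.

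A list of 21 cyclins, CDKs and regulators of CDKs was also taken. Regulators in it such as *Cdc25a*, *Wee1* and *Pkmyt1* are neither cyclins nor CDKs. Of the 21 genes, 20 were listed, all above the median of all genes. Their median was 3100 normalized counts, and 19 were above 1082. *Cdk4*, a target of INK4 proteins, had 20846 normalized counts, or 10154 per kb, and *Cdk6*, the other such target, 1035, or 89.8 per kb. The level of *Cdk6* was below 1082, and per kb of the longest transcript it was below the median of all genes, 165. By coding length *Cdk6* was at 1059 per kb, above 65.4% of genes with such a length. By mean length over transcripts it was at 351 per kb, above 52.3%. The D cyclins that activate both were at 21977 for *Ccnd1*, 23471 for *Ccnd2* and 4678 for *Ccnd3*. *Cdk2*, a target of p21 and p27, had 964 per kb of the longest transcript, between *Mdm2* and *Cdkn1a* on that scale.

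**Figure D4:**
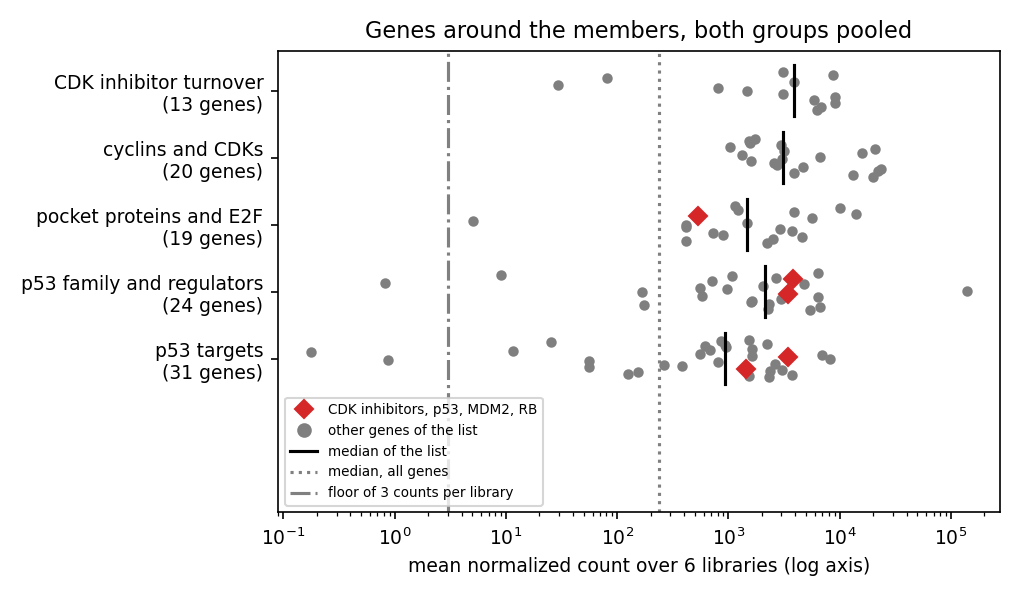
Mean normalized count (log axis) of each listed gene in 5 gene lists, with the median of each list (black), the median of all genes (dotted) and the floor (dash-dotted). The genes of the list of cyclins and CDKs, which also holds regulators of CDKs, all lie right of the median of all genes. In contrast, p53 targets extend from below the floor to 8277.

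Among the 36 pairs of the 9 genes, the order per kb was the same under all 4 choices of length in 28. In 13 pairs the levels were over 2-fold apart under each choice, and 7 of these had *Cdkn2d* as the lower gene. Counting intervals were apart in 35 pairs on the scale of the longest transcript. These 13 pairs have *Cdkn2a* above *Cdkn2b*, *Rb1* and *Cdkn2d*, and *Trp53* above the same genes. In them *Mdm2* and *Cdkn1a* were each above *Rb1* and *Cdkn2d*, and *Cdkn2c*, *Cdkn1b* and *Cdkn2b* above *Cdkn2d*.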

How the data were processed

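Poly(A)-selected RNA was sequenced. According to the methods, reads were aligned to mm10 with STAR and counted with HTSeq-count on UCSC knownGene, whereas the labels also list TopHat, Cufflinks and Cuffdiff. Labels and methods differ in read length and library kit. The authors deposited a table whose signal averages, over 6 libraries, the counts divided by DESeq2 size factors. Its other columns hold the authors' own fold changes, standard errors, p-values and direction and were not used. No values of single libraries were analysed here, so the planned edgeR test was not run.

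Size factors came from the 6 most repeated values, each that of genes with 1 read in a single library (149 to 242 genes each, 52 at the next value), without assigning libraries to groups. A floor of 3 counts in each library amounts to a mean of 3.01. Means below 2 normalized counts were resolved into whole reads within 2e-08, which was tested on simulated data. Intervals cover counting error only. Lengths came from GENCODE M21 on GRCm38 (14655 genes matched by symbol), and levels per length from the longest spliced transcript. The genes described, the lists and the markers were chosen with earlier results of these data known. Any gene of these lists could be named; genes next to a member in rank of level could be too, and are left out. Python 3.11.15, numpy 2.4.6, pandas 2.3.3, scipy 1.17.1 and matplotlib 3.10.9 were used.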

Additional observations from a re-analysis of the deposited data

How the results depend on the processing

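Over genes averaging 10 or more normalized counts, the median share of genes below the 9 genes became 56.4% in place of 70.5%, because low genes leave the background. Their median level per kb, 560 for the longest transcript, became 2747 per coding length and 829 per mean length over transcripts, as shorter lengths raise it, and stayed at 560 for the longest transcript that codes, an alternative added after seeing the data. All 9 genes were also above a floor of 10 counts per library. With the minimum mean, the median of the list of *Cdkn2a*, *Cdkn2b* and 3 genes near them became 1531 in place of 583, the mean of *Cdkn2b* itself, since *Dmrta1* dropped out, and the medians of the 5 other lists moved by less than 1.5 times. The test of *Ms4a15* OE against control and its alternatives (DESeq2, no filter, each library left out) were planned and not run. No paired analysis was possible because the mean used pools all 6 libraries. A pooled mean hides any difference between the groups, and no spread between libraries is known.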
